A study of Mus musculus with 4 samples.

Results

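The genes of the elastic fibre and its microfibrils make up a set of 10 here: the elastin gene Eln, the fibrillin genes Fbn1 and Fbn2, the microfibril-associated genes Mfap2, Mfap4 and Mfap5, the fibulin genes Fbln1, Fbln2 and Fbln5, and Emilin1. They were taken by symbol, through the RefSeq accession that each array probe carries, and all 10 were found among the 21154 genes that could be named on the array, with 14 probes. Elastic fibres give tissue its recoil. Fibrillins polymerise into microfibrils, on which secreted elastin is deposited with the help of fibulins and then cross-linked by lysyl oxidases, and microfibrils also hold latent TGF-beta in the matrix. In the thymus such fibres belong to the capsule, septa and vessel walls, which mesenchymal cells build.

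The samples were thymospheres, free-floating colonies grown from dissociated mouse thymus. Adult spheres came from C57Bl6/N mice of 5 to 6 weeks and embryonic spheres from C57Bl6/N embryos at day 14.5. Both kinds grew for 7 days without attachment in a medium with B27 supplement, hydrocortisone, insulin, EGF and bFGF, with medium added on day 5. Grown spheres were kept back on filters, so that loose single cells were washed off. There were 2 samples of each kind, each on a separate 1-colour Agilent array. No genetic change or further treatment is given in the labels, and they do not say how many animals were pooled.

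Signals are given as log2 of the processed spot signal minus log2 of the array's 75th percentile, so 0 is the 75th percentile of that array and 1 unit is a 2-fold step. A spot is called detected here where the scanning software marked it well above background. Between 35.7% and 71.6% of spots were detected on an array, with both higher values on adult arrays. Sensory receptor probes, used here to show signal on genes that a thymus culture is not known for, were detected for 51.3% and 23.2% of 1507 probes on the adult arrays and for 6.10% and 2.26% on the embryonic arrays. The labels name the spheres without a cell type. Of 8 epithelial markers, 7 or 8 were detected on each array. Epcam, an epithelial surface marker, stood at 1.29 and -0.011 on adult arrays 1 and 2 and at 1.62 and 1.53 on embryonic arrays 1 and 2. The basal keratin gene Krt5 stood at 3.83 and 2.89 against 6.08 and 7.16, a difference of 3.26, and a second Krt5 probe differed by 1.33. Of the 9622 genes detected on all 4 arrays, both embryonic arrays lay above both adult arrays in 75.5% and below them in 6.59%. Of the 8 epithelial markers they lay above in 7 and below in 1. That 1 was the keratin gene Krt14, named after its values were seen, at 1.70 and 0.38 against -0.57 and -1.08. Foxn1, the transcription factor of thymic epithelium, was detected on 1 adult and both embryonic arrays. Fibroblast genes were present as well, among them Pdgfra and the collagen gene Col1a1, which stood at 5.66 and 5.53 on adult arrays and at 6.49 and 5.84 on embryonic arrays. Of 7 blood cell markers 4 were detected on all 4 arrays (Cd3e, Cd4, Itgam and Adgre1, named after their values were seen), with summed signals of 70.5 and 99.5 times the 75th percentile on adult and 84.7 and 93.7 times on embryonic arrays. Ptprc, the pan-leukocyte marker, was detected on 1 adult array and on no embryonic array.

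The 3 promoter windows below belong to genes without overlap between the groups, Mfap2 and Fbln1 with more embryonic signal and Fbln2 with less. They are shown 5′ to 3′ from RefSeq (GRCm38.p6, + strand), from 250 bases before to 50 bases after the annotated start, and capitals mark motif hits, which read as the reverse complement where the hit is on the other strand.
Mfap2, chr4:141010431-141010730: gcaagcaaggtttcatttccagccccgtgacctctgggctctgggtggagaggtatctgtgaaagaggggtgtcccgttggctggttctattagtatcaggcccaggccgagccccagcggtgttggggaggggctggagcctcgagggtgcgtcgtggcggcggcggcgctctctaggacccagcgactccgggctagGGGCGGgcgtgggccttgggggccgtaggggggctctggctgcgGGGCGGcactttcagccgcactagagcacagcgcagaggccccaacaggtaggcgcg
Fbln1, chr15:85205758-85206057: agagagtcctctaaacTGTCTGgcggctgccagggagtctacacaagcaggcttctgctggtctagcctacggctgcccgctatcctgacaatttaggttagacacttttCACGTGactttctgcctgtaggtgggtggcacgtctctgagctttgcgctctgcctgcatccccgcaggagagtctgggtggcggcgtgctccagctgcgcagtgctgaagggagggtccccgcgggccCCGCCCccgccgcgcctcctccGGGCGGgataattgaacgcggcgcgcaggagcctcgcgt
Fbln2, chr6:91212514-91212813: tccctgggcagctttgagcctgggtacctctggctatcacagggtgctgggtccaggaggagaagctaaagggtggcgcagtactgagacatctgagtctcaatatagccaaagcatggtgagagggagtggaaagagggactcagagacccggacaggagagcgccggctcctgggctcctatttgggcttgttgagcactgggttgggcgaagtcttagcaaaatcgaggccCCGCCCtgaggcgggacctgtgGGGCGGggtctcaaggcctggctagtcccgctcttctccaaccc

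The letters searched for were the GC-box motif GGGCGG, the TATA-box motif TATAAA, the AP-1 motif TGANTCA, the motif CAGACA bound by SMAD proteins, which carry TGF-beta signals, and the E-box motif CACGTG. Both strands were searched, and no hits of different motifs overlapped. The windows of Mfap2, Fbln1 and Fbln2 each held GGGCGG at 2 places, a motif found in 35.7% of all 32851 windows of this length. Fbln1 also held CAGACA, present in 21.0% of windows, and CACGTG, present in 7.15%. None of the 3 held TATAAA (13.6% of windows) or TGANTCA (7.81%). Mfap2 and Fbln1 each have a further annotated start, whose windows held no GGGCGG. The further Mfap2 window held CAGACA. The further Fbln1 window overlaps the one shown, and its CAGACA and CACGTG are the same bases. Of the 10 genes, 6 had a promoter entry among the windows searched, namely Fbn1, Mfap2, Emilin1, Fbln1, Fbln2 and Fbln5. Windows on chromosome 18, which carries Fbn2, were left out for the 10 genes, so Fbn2 was not searched. These hits describe letters and not sites.

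All 10 genes were detected on all 4 arrays with the probe that represents them. They went apart between embryonic and adult spheres. Embryonic spheres had 9.44-fold more signal of Fbln1, 8.36-fold more of Fbn2 and 5.00-fold more of Mfap2. Adult spheres had 15.8-fold more of Mfap5, 2.84-fold more of Mfap4, 2.57-fold more of Eln and 2.41-fold more of Fbln2. The set was drawn up with earlier results of the same comparison known, in which Mfap5 was among the most reduced genes and Fbln1 among the raised ones. The differences between the groups are therefore given as a description, without p-values. In a fit with limma over all 13660 genes tested (Benjamini-Hochberg adjusted p under 0.05), 3 of the 10 were called higher and 4 lower in embryonic spheres, where 36.1% of all tested genes were called higher and 17.5% lower (53.5% in either direction). Of the 9622 genes detected on all 4 arrays, the calls were higher for 43.8% and lower for 2.35% (46.1% in either direction). In 9 of the 10 genes the groups did not overlap, with both embryonic arrays above both adult arrays in 4 genes and below them in 5. Among those 9622 genes the groups did not overlap in 82%, with embryonic arrays above in 75.5% and adult arrays above in 6.59%. Nothing is read from these counts, since the same comparison chose the genes, and no gene was called once adult array 1 or adult array 2 was left out. The series text mentions biological as well as technical replication and assigns neither to an array, so p-values measure the spread between these samples only, which may be technical. In RNA from whole spheres, fewer cells of a type and less RNA per cell cannot be told apart.

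**Figure D1:**
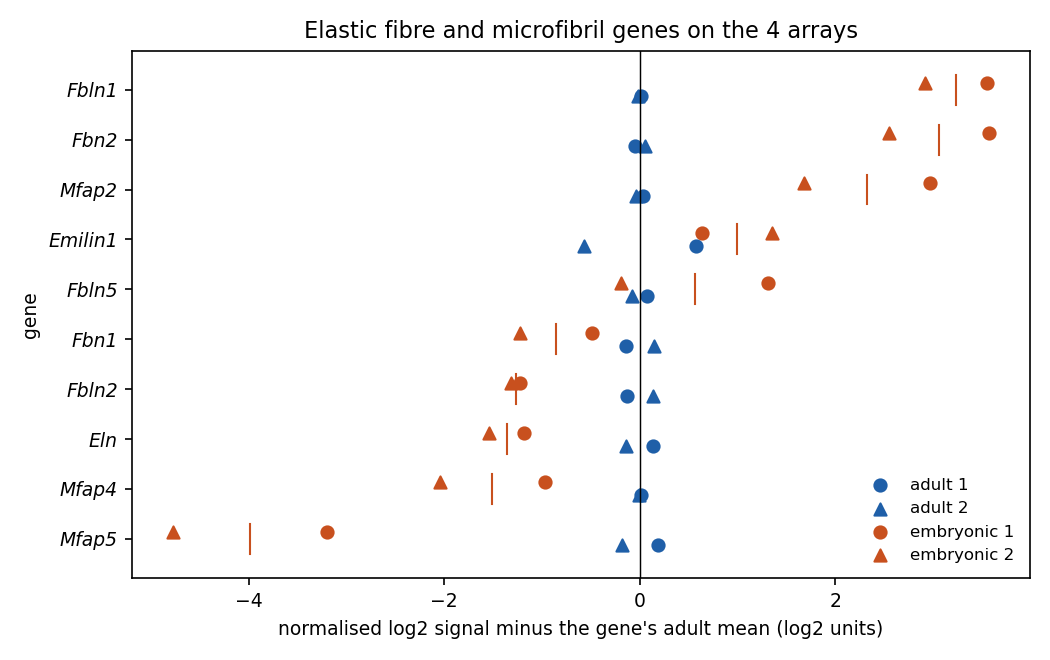
Normalised log2 signal of each elastic fibre gene on the 4 arrays, minus the mean of its adult arrays, in log2 units. Circles and triangles are arrays 1 and 2 of a group and the short orange lines are embryonic means. Mfap5 lies 3.99 units below its adult mean and Fbln1 3.24 units above it, and in Fbln5 the groups overlap.

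The level of a difference depends on how arrays are scaled. The median difference over all tested genes was 0.79 log2 units in favour of embryonic spheres, and 0.97 over those detected on all 4 arrays, against a median of -0.15 over the 10 elastic fibre genes. Over all genes 4928 were called higher and 2385 lower. Centring on the median of an array's tested genes gave 937 and 2797, and centring on the median of its probes, dim ones included, gave 9833 and 1688. Of the elastic fibre genes, 4 had a difference above 0.79. After centring on the tested genes 2 were called higher, Fbn2 and Fbln1, and 5 lower, Eln, Fbn1, Mfap4, Mfap5 and Fbln2. Of all tested genes 27.3% were then called, 6.86% higher and 20.5% lower, and of the 9622 with signal on every array 6.84% higher and 4.91% lower. After centring on all probes 5 were called higher and Mfap5 was the 1 called lower.

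**Figure D2:**
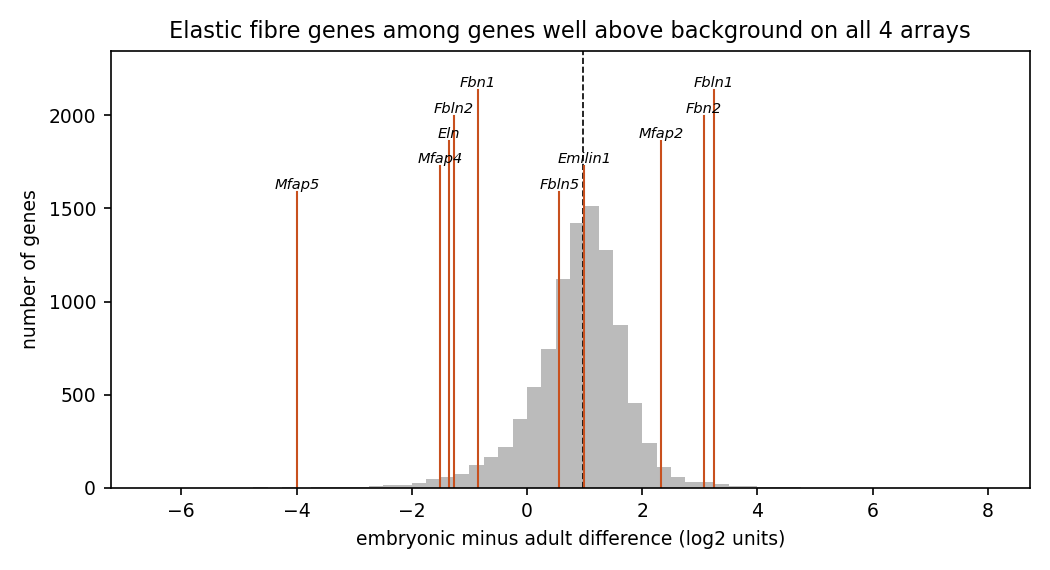
Number of genes by embryonic minus adult difference in log2 units, for the 9622 genes detected on every array. The dashed line is their median of 0.97, and orange lines mark the 10 elastic fibre genes, of which Mfap5 lies at -3.99 and Fbln1 at 3.24.

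Eln encodes tropoelastin, the soluble monomer of the elastic core. Its signal was 0.32 on adult array 1 and 0.045 on adult array 2, against -0.998 and -1.36 on embryonic arrays 1 and 2. Both embryonic arrays lay below both adult arrays, with a difference of -1.36 (SE 0.33), which is 2.57-fold more signal from adult spheres. Its call was lost in 6 of 15 alternatives, and the difference was -0.52 with normexp background correction, -0.61 in the deposited value table and -0.17 with centring on all probes.

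Fbn1 and Fbn2 encode the large glycoproteins that form the backbone of microfibrils, fibrillin-1 through life and fibrillin-2 mostly in developing tissue. Fbn1 stood at 2.98 and 3.27 in adult spheres and at 2.64 and 1.90 in embryonic spheres. The groups did not overlap. The difference of -0.85 (SE 0.38) did not pass the test in the fit, but it passed as lower in 5 of 15 alternatives, among them quantile normalisation (-1.70), the deposited value table (-1.56) and centring on the tested genes (-1.54). It turned positive when arrays were centred on the median of all probes (0.33, SE 0.53). Fbn2 stood at 0.53 and 0.63 on adult and at 4.15 and 3.13 on embryonic arrays, a difference of 3.06 (SE 0.43), or 8.36-fold more signal from embryonic spheres. Over the 15 alternatives the Fbn2 difference lay between 2.20 and 4.25. The adult arrays were thus close together for both genes, and the fibrillins went opposite ways on the scale used here. The gap between the differences of Fbn2 and Fbn1 does not depend on where an array is centred. It was 3.92 log2 units, between 3.68 and 4.15 over the pairings of an embryonic with an adult array, and between 3.18 and 4.06 over the 15 alternatives. Alternatives that change only the centring, the filter or the error could not move this gap or those of the pairs below.

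Mfap2 and Mfap5 encode the microfibril-associated glycoproteins MAGP-1 and MAGP-2, small proteins that bind fibrillins along the microfibril. Mfap2 stood at 2.72 and 2.65 on adult arrays and at 5.65 and 4.36 on embryonic arrays, a difference of 2.32 (SE 0.49), or 5.00-fold. Over 15 alternatives this difference lay between 1.32 and 3.51, and with centring on the tested genes (1.63) it did not pass. Mfap5 stood at 6.74 and 6.37 on adult arrays and at 3.36 and 1.78 on embryonic arrays, a difference of -3.99 (SE 0.57), or 15.8-fold more signal from adult spheres. Its difference lay between -4.90 and -2.80 over the alternatives. In both genes the adult arrays lay within 0.37 log2 units of each other, while the embryonic arrays were 1.29 and 1.58 apart. The gap between the differences of this pair was 6.31 log2 units, the ratio of the relative signals shifting 79.3-fold between the groups, and it lay between 6.01 and 6.61 over the pairings of arrays and between 5.96 and 6.46 over the alternatives.

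Mfap4 encodes a fibrinogen-related glycoprotein that binds tropoelastin and fibrillin. Its signal was 3.73 and 3.71 in adult spheres, against 2.75 and 1.68 in embryonic spheres. It was lower on both embryonic arrays, by 2.84-fold at the means (difference -1.51, SE 0.44). The call was lost in 5 of 15 alternatives, with a difference of -0.32 when arrays were centred on all probes and of -0.97 without embryonic array 2.

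The fibulins are secreted glycoproteins that link elastin, fibrillin and basement membranes. Fbln1, a component of the elastic core and of basement membranes, stood at -0.35 and -0.37 on adult arrays and at 3.20 and 2.56 on embryonic arrays, a difference of 3.24 (SE 0.35), or 9.44-fold. Over 15 alternatives the Fbln1 difference lay between 2.30 and 4.43. Fbln2, which binds elastin, fibrillin and fibronectin, stood at 5.70 and 5.96 on adult arrays and at 4.61 and 4.52 on embryonic arrays, a difference of -1.27 (SE 0.31), or 2.41-fold more signal from adult spheres, and of -0.081 with centring on all probes. In both genes the groups did not overlap. The embryonic arrays were 0.64 apart for Fbln1 and 0.091 apart for Fbln2. The gap between their differences was 4.51 log2 units, between 4.09 and 4.93 over the pairings of arrays and between 3.69 and 4.97 over the alternatives.

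Fbln5, which tethers elastin to microfibrils and to integrins on the cell, had no difference beyond the spread of its arrays on the probe that represents it. This probe stood at 0.061 and -0.089 on adult arrays and at 1.30 and -0.21 on embryonic arrays. The groups overlapped, with a difference of 0.56 (SE 0.54), and the sign turned with centring on the tested genes (-0.13, SE 0.55) and without embryonic array 1 (-0.19, SE 0.47).

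Emilin1 encodes a glycoprotein at the interface of elastin and microfibrils. It stood at -0.035 and -1.18 on adult arrays and at 0.025 and 0.75 on embryonic arrays. The lowest embryonic and the highest adult array were nearly level, and the difference of 0.99 (SE 0.50) did not pass the test. The median over all genes detected on every array was 0.97. Emilin1 passed as higher with centring on all probes (2.18), and differed by 0.30 with centring on the tested genes and by 1.35 without embryonic array 1. Its adult arrays were 1.15 log2 units apart, the widest adult gap among the 10 genes.

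Probes of the same gene went the same way in 3 of the 4 genes that had 2 probes. The second Fbn2 probe stood at 0.26 and 0.40 on adult and at 3.11 and 1.82 on embryonic arrays, a difference of 2.13. The second Mfap2 probe differed by 2.24 and the second Fbln1 probe by 2.98, although the latter was detected on just 1 adult array. Fbln5 was the exception. Its dimmer probe, A_52_P278336, stood at -1.74 and -1.16 on adult arrays and was not detected on either embryonic array, which makes the adult signal at least 1.98-fold higher. The bound sets the adult mean against the dimmest detected probe of each embryonic array, or the probe's own signal where that is higher. Adult arrays had signal on more dim probes of all kinds, as the sensory receptor probes show, and the part of this in the dimmer Fbln5 probe was not tested. The other 6 genes had 1 probe each, which gives no second reading.

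**Figure D3:**
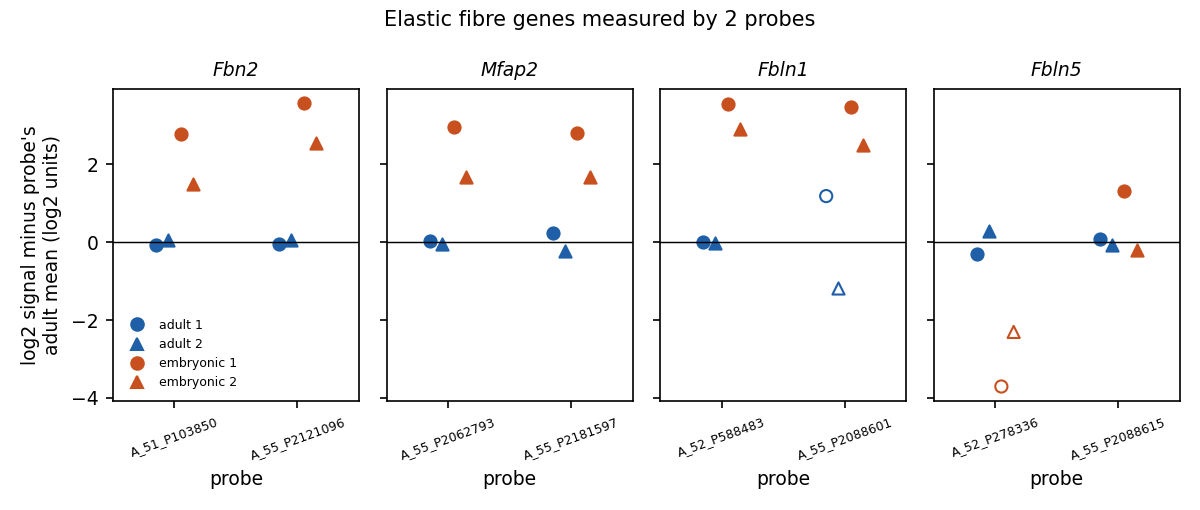
Log2 signal on each array minus the probe's own adult mean, in log2 units, for the 4 elastic fibre genes with 2 probes. Open symbols mark a group in which fewer than 2 arrays detected the probe. Both probes of Fbn2, Mfap2 and Fbln1 lie higher on embryonic arrays, while the Fbln5 probes part, with A_52_P278336 not detected on embryonic arrays.

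The embryonic arrays differed from each other in these genes. Embryonic array 1 had more signal than embryonic array 2 in 9 of the 10 genes, Emilin1 being the exception, and the median difference was 0.88 log2 units. Of the 9622 genes detected on every array, 47.9% were higher on embryonic array 1, with a median difference of -0.023. The widest gaps were those of Mfap5 (1.58), Fbln5 (1.51), Mfap2 (1.29), Mfap4 (1.08) and Fbn2 (1.02), and the narrowest that of Fbln2 (0.091). The adult arrays were closer, with a median gap of 0.21 over the 10 genes against 0.88 for the embryonic arrays. This comparison lies within a group and was not used to choose the genes, but with 1 array on each side it has no replicate check.

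Fibroblast markers moved with this gap. All 8 (Pdgfra, Pdgfrb, Col1a1, Col1a2, Col3a1, Dcn, Lum and Thy1) were higher on embryonic array 1, with a median difference of 0.61, and all 8 were detected on every array. Their summed signal, in multiples of the array's 75th percentile, was 781 on embryonic array 1 and 452 on embryonic array 2, against 411 and 409.8 on the adult arrays. Of 8 epithelial markers 2 were higher on embryonic array 1, with a median difference of -0.40, and their sum was 393 on embryonic array 1 and 563 on array 2, against 203 and 119 on the adult arrays. Of 6 smooth muscle and pericyte markers measured on every array none was higher on embryonic array 1, but only 4 of the 6 were detected on the embryonic arrays. Their part in the elastic fibre values was not tested.

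The marker lists were chosen with earlier results of these data known, so their p-values are no independent evidence. Between the groups, the fibroblast markers did not share a direction. Of 8 tested, 2 were higher and 1 lower in embryonic spheres in limma's adjusted test, with a median difference of 0.42. Of all genes detected on every array 43.8% were called higher and 2.35% lower, with a median of 0.97. Pdgfra, the receptor that marks thymic mesenchyme, rose by 2.23 (SE 0.35, adjusted p = 0.00982), and Col1a1 had a difference of 0.57 (SE 0.36, adjusted p = 0.212), which turned negative under quantile normalisation, with centring on the tested genes and in the deposited value table. Smooth muscle and vessel walls are rich in elastin, and their markers also went both ways. Of the 4 smooth muscle and pericyte markers detected on all 4 arrays 3 rose and 1 fell, beside the same 43.8% and 2.35% of genes. After centring on the tested genes no marker of this list was called higher. Summed signals over 6 of the markers were 34.2 and 37.4 on adult and 60.9 and 84.3 on embryonic arrays. The marker that fell was Acta2, smooth muscle actin (by 1.45, SE 0.35, adjusted p = 0.0212). Cnn1 and Des, named after their values were seen, were detected on both adult arrays and on no embryonic array. Of 5 tested endothelial markers Kdr, also named after its value was seen, was the 1 detected on all 4 arrays, with a difference of 0.64 (SE 0.39, adjusted p = 0.201). The other 4 entered the test through the adult arrays alone, so lower embryonic values there are not counted as a result. Among them was Cdh5, the vascular cadherin, with adult signal at least 2.59-fold higher. The endothelial sums over 5 markers were 16.1 and 18.4 on adult and 16.1 and 25.8 on embryonic arrays. They mostly hold Kdr, the brightest of the 5 on every array, at 3.44 and 3.89 on adult and 3.95 and 4.66 on embryonic arrays. All 5 were detected on each adult array, but 3 on embryonic array 1 and 1 on embryonic array 2. The part of these cell types in the lower Eln, Mfap4 and Mfap5 signal was not tested.

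Genes that act on elastic fibres without belonging to the set were described from a list of 49, chosen by role with earlier results of these data known, so that its calls are no independent evidence. Of these, 41 were tested and 36 were detected on all 4 arrays. In limma's fit 6 of the 36 rose and 2 fell in embryonic spheres, beside 43.8% of all genes detected on every array called higher and 2.35% lower. Their median difference was 0.35, against 0.97 over all such genes. Of the other 5 tested genes 3 were called lower, and all 3 entered the test through the adult arrays. Over all 41 this makes 6 higher, 5 lower and 30 not called, with a median of 0.27 against 0.79 over all tested genes. After centring on the tested genes 2 were higher and 10 lower, beside 6.86% and 20.5% of all tested genes. Of the 8 that were not tested, none was detected on both arrays of either group. They are Hmcn1, Adamtsl2, Thsd4, Emilin3, Mmrn1, Mmp7, Mmp9 and Mmp12, the last of which encodes macrophage elastase. All calls on this list were lost without adult array 1 or adult array 2.

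Of 6 tested genes for the cross-linking of elastin, 5 were detected on all 4 arrays and none passed. Lox, the founding lysyl oxidase, stood at 2.57 on both adult arrays and at 2.16 and 1.67 on embryonic arrays. Its difference was -0.65 (SE 0.33, 95% interval -1.48 to 0.18, adjusted p = 0.139). It passed as lower under quantile normalisation (-1.47), with centring on the tested genes (-1.35) and in the deposited value table (-1.34), and turned positive with centring on all probes (0.53). Loxl1, which is targeted to elastin, differed by 0.025 (SE 0.35, 95% interval -0.85 to 0.90, adjusted p = 0.954), and its sign turned in 7 of 15 alternatives.

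Among the relatives of the fibulins, Efemp1, which encodes fibulin-3, rose by 2.03 (SE 0.36, adjusted p = 0.0116). It stood at 0.78 and 0.22 on adult and at 2.69 and 2.37 on embryonic arrays. Efemp2, whose product fibulin-4 brings lysyl oxidase to elastin, differed by -0.25 (SE 0.34, adjusted p = 0.540), and its groups overlapped.

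The genes of latent TGF-beta and its binding proteins (LTBPs) split. Ltbp4, whose product helps fibulin-5 deposit elastin, had the greatest rise of the list, from 0.77 and 0.94 on adult to 3.02 and 3.53 on embryonic arrays, a difference of 2.42 (SE 0.34, adjusted p = 0.00867). A second Ltbp4 probe differed by 2.33. Tgfb2, a ligand, rose by 1.72 (SE 0.36, adjusted p = 0.0162). Ltbp2, which binds fibrillin microfibrils and no latent TGF-beta, changed the other way, from 2.82 and 2.58 on adult to 0.93 and 0.86 on embryonic arrays, by -1.81 (SE 0.31, adjusted p = 0.0110). The other 4 tested genes of this class did not pass.

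ADAMTS and ADAMTSL genes act on microfibrils as proteases or as protease-like binding proteins. Adamtsl4 rose by 1.47 (SE 0.37, adjusted p = 0.0242) and Adamtsl5 by 1.28 (SE 0.33, adjusted p = 0.0246). A second Adamtsl5 probe, detected on all 4 arrays, differed by 0.58. The Adamtsl4 call was lost in 5 of 15 alternatives and the Adamtsl5 call in 6. With centring on the tested genes neither passed (0.78 and 0.59). The protease genes Adamts17 and Adamts6 were detected on both adult arrays and no embryonic array, with adult signal at least 9.34-fold and at least 2.60-fold higher. Both entered the test through the adult arrays alone, and their fitted differences rest on embryonic values below detection, so no p is given. Adult arrays carried more signal on dim probes in general, and the part of this in these bounds was not tested. Mmrn2, an endothelial relative of the EMILIN genes stood at -0.20 and 0.32 on adult arrays and at -2.60 and -2.97 on embryonic arrays, of which 1 detected it. It too entered the test through the adult arrays.

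Scaffold, receptor and elastin-degrading genes mostly did not pass. Fibronectin, on which microfibrils assemble, had a Fn1 signal of 6.42 and 6.92 on adult and of 7.46 and 7.53 on embryonic arrays. The difference of 0.82 (SE 0.33, adjusted p = 0.0823) turned negative under quantile normalisation and in the deposited value table. Itgb3, an integrin subunit that binds fibrillin, changed by -0.97 (SE 0.30, adjusted p = 0.0421), a call lost in 7 of 15 alternatives. It did not pass with the replicate number as a block (adjusted p = 0.0578) or without any 1 of the 4 arrays, and its sign turned under centring on all probes (0.21). Glb1, which encodes lysosomal beta-galactosidase and the elastin-binding protein, rose by 0.99 (SE 0.32, adjusted p = 0.0457). It did not pass in 10 of 15 alternatives. None of the 6 tested elastin-degrading genes passed, beside 46.1% of all genes detected on every array. After centring on the tested genes 1 of the 6 was called lower, Ctsk (-1.65), named after its value was seen.

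**Figure D4:**
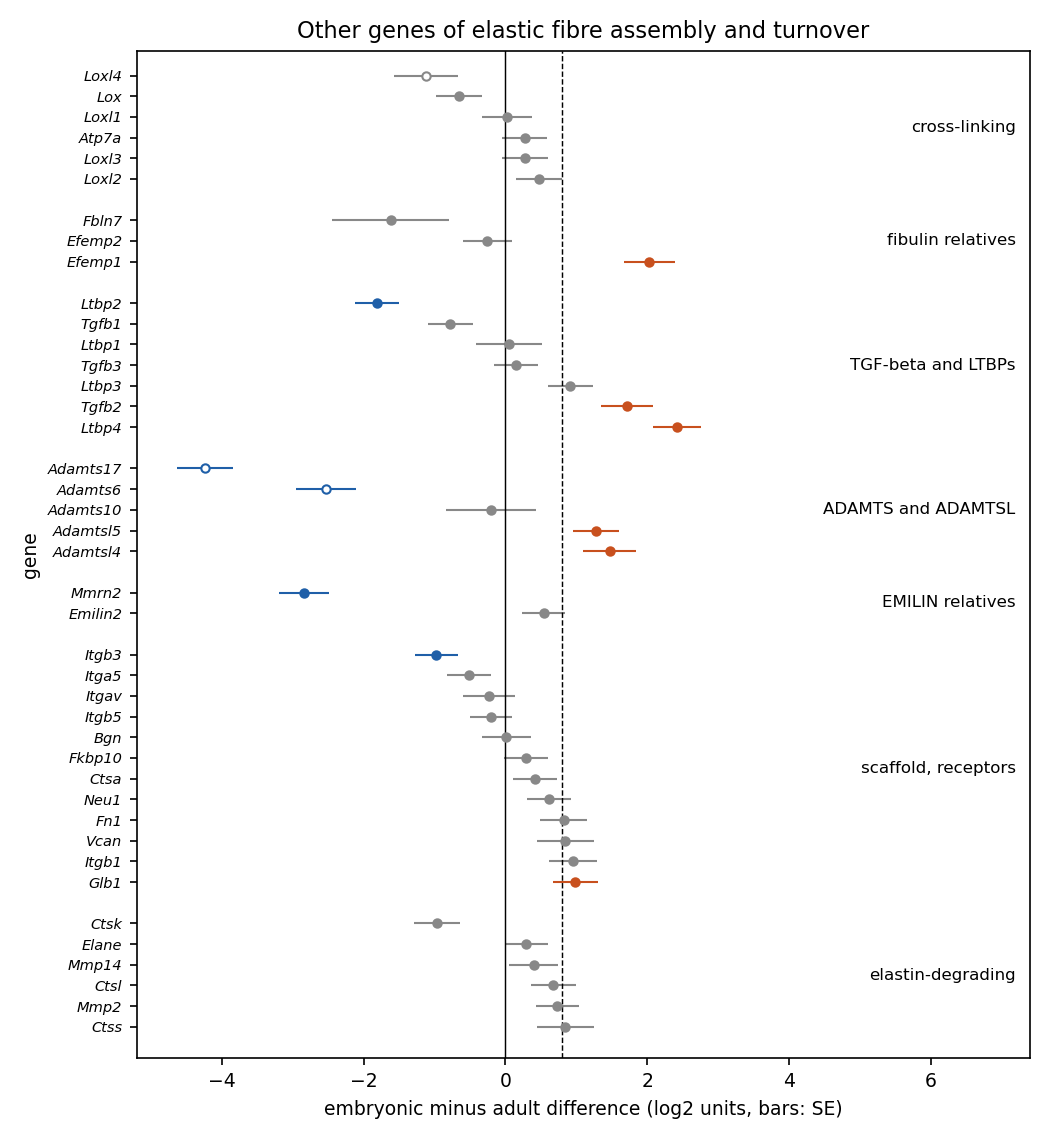
Embryonic minus adult difference in log2 units with its standard error, for the 41 tested genes that act on elastic fibres, by class. Orange and blue mark genes called higher and lower in embryonic spheres, open circles genes detected on no array of a group, and the dashed line the median of all tested genes, 0.79. Open circles are drawn at the fitted value although only a bound is known, so their order carries no information. Ltbp4, Efemp1 and Tgfb2 lie farthest to the right, and Ltbp2 and Itgb3 are the called lower genes detected on all 4 arrays.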

How the data were processed

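Messenger RNA was measured on 4 Agilent arrays, 2 from adult and 2 from embryonic thymospheres, grouped by sample title, with 25 ng of total RNA labelled per array. Per the file headers, the scanner files hold spot intensity from Agilent Feature Extraction 10.7.3.1, with background and spatial trend removed on every array separately. All 4 arrays lay on the same slide. The authors' deposited value table is in linear intensity units. Its column medians were 34.4, 35.0, 35.7 and 35.1, and its columns share 1 maximum. Its scaling and centring are not given in the sources used here. It served as an alternative. On the log2 scale each column correlated at 0.994 to 0.998 with its own array's median spot signals, more closely than with another array's, so its direction is that of the signals.

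Control spots and outlier spots were left out (185 and 2756 outliers on adult arrays, 120 and 95 on embryonic arrays). Saturation affected 0 spots. The processed signal was taken as log2 and the array's 75th percentile subtracted. Spots of a probe were averaged, and 28026 of 55681 probes matched a gene symbol of the RefSeq annotation GRCm38.p6 by accession, versions removed. The array design names another build, so symbols only were used for genes. A probe was tested if well above background on both arrays of a group, and a gene took its brightest probe, those well above background on all 4 arrays first. Embryonic minus adult was fitted over 13660 genes with limma 3.58.1 (lmFit, eBayes) in R 4.3.3 on all 4 arrays, without covariates. The script was tested on simulated data. An exact permutation test of 2 against 2 arrays cannot go below p = 0.333 (two-sided), so none was run. The number of arrays limits the precision.

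The 10 genes and all lists were chosen with earlier results of these data known. Named are all 10, Lox, Loxl1, Efemp2, Ltbp4 and Fn1, per direction the up to 6 called assembly genes with the greatest absolute difference, and the markers Epcam, Krt5, Foxn1, Pdgfra, Col1a1, Acta2, Cdh5 and Ptprc. Marker lists covered epithelium, fibroblasts, smooth muscle and pericytes, endothelium, blood cells (of 4 tested genes none was called), adipocytes (of 2 detected on all 4 arrays none was called) and cartilage and bone (of 2 such genes 1 rose). A planned description of member proteins was not made. The normexp alternative used median spot signals in place of mean signals, with an offset of 50.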

Additional observations from a re-analysis of the deposited data

How the results depend on the processing

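Part of the alternatives could not move the difference of an elastic fibre gene, only its error or the genes tested beside it. These were no filter on dim probes, the filter on all 4 arrays, the intensity trend, the robust prior and the replicate block. The mean of probes could not move a gene with 1 probe. With these values counted in, the 10 genes kept the sign of their difference in 146 of 150 values over 15 alternatives. The exceptions were Fbn1 with arrays centred on all probes (0.33) and Fbln5 with centring on the tested genes (-0.13), with the mean of its probes (-1.22, of which 1 probe was not detected on embryonic arrays) and without embryonic replicate 1 (-0.19). Without an array Fbln5 ranged from -0.19 to 1.31, and Fbn1 passed without embryonic replicate 1 (-1.22). Calls of elastic fibre genes, 3 higher and 4 lower, became 5 and 1 with centring on all probes, and 1 lower with no filter on dim probes, where Eln, Mfap2, Mfap4 and Fbln2 did not pass. Leaving out an array gave 0 to 4 higher and 0 to 5 lower, 0 in each case without adult replicate 1 or 2. There limma called no gene in either direction, although 4395 and 3422 genes were higher and 2038 and 2104 lower at an unadjusted p under 0.05. A lone adult array was assumed to vary like the embryonic pair. The cause of these shifts was not tested.

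Over all genes, calls were 2545 higher and 829 lower with normexp, 2855 higher with quantile normalisation, 9833 higher with centring on all probes, 937 higher with centring on tested genes, 930 higher with no filter and 329 lower with signal asked on all 4 arrays. Without an array they were 0 to 5049 higher and 0 to 2599 lower. The assembly list, 6 higher and 5 lower, gave 11 lower with quantile normalisation, 26 higher and 3 lower with centring on all probes, 2 higher and 10 lower with centring on tested genes, 14 lower in the deposited value table, 2 higher with no filter, 10 higher with an intensity trend, and 0 to 7 higher and 0 to 6 lower without an array.

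Signs turned for Loxl1 (normexp -0.13, quantile -0.82, tested-gene centring -0.67, value table -0.83, mean of probes -0.070, and -0.27 to 0.32 without an array, negative without adult replicate 2 or embryonic replicate 1), Fn1 (quantile -0.10, value table -0.25), Col1a1 (quantile -0.26, tested-gene centring -0.12, value table -0.31), Lox, Efemp2 and Itgb3 (all-probe centring 0.53, 0.93 and 0.21), and Efemp2 without embryonic replicate 2 (0.030, against -0.54 without embryonic replicate 1).

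Same-numbered arrays shared only a number: their deviations correlated at 0.070 over 13368 genes, across 2 pairs. With the replicate number as a block 4622 genes were called higher and 2402 lower, the elastic fibre genes 3 and 4 and the assembly list 5 and 4. Dim probes have only bounds, which limits Fbln5, Adamts6, Adamts17 and Cdh5.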
